A study of Mus musculus with 36 samples.

Results

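The nuclear genes for subunits of respiratory complexes II, III, IV and V and for cytochrome c were followed in the gastrocnemius muscle of mice that ran different daily distances on a high-fat diet (HFD). Members were the protein-coding genes named Sdha, Sdhb, Sdhc, Sdhd, Cyc1 or Cycs, and those whose names begin with Uqcr, with Atp5, or with Cox followed by a digit from 4 to 8, pseudogene names left out. This gave 49 of 46893 features in the count table, of which 4 belong to complex II, 9 to complex III, 1 is cytochrome c, 18 belong to complex IV and 17 to complex V. The rule reads names and gene type alone. RNA sequencing of poly(A) RNA was done on wild-type C57BL/6 males that entered the study at 3 to 4 weeks of age and were killed after 12 weeks, with 6 mice in each of 6 groups. NFD-C mice were sedentary and ate the AIN93G diet, and HFD-C mice were sedentary and ate the HFD. The remaining mice ate the HFD and had a running wheel in the cage, and the groups HFD-25%, HFD-50% and HFD-75% were held to mean distances of 2.1, 4.2 and 6.3 km/day, while the unrestricted group HFD-U ran 8.3 km/day. In the restricted groups the wheel was freed at lights off and braked again after the allotted distance.

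Complexes I to IV pass electrons from nutrients to oxygen along the inner mitochondrial membrane. Complexes I, III and IV move protons across it, and complex V (ATP synthase) uses this proton gradient to make ATP. Complex II is also succinate dehydrogenase of the citric acid cycle and is encoded wholly in the nucleus, whereas complexes III, IV and V combine nuclear subunits with a few encoded by mitochondrial DNA. Slow and oxidative muscle fibres hold more mitochondria than fast glycolytic fibres, and endurance training is known for raising the oxidative capacity of muscle.

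Libraries held between 13060090 and 27981702 counts on genes, and the 49 members together took 1.54% to 2.80% of them. The 8 genes of the slow fibre list summed to between 52.0 and 4481 CPM (counts scaled to a common library size) in single mice, whereas the 8 fast 2B genes summed to between 71910 and 173400 CPM, and the 5 general muscle markers stood high in all libraries. Features linked to ribosomal RNA took 2.01% to 3.80% of counts in all 6 NFD-C libraries and in 4 of the 6 HFD-C libraries, but 0.404% to 1.02% in the other 2 HFD-C libraries and in all 24 running mice. This share therefore moved with the contrast of running against sedentary mice, and results are given below with it in the model or in low-share libraries alone. Testis markers stayed at or under 0.553 CPM, and the defining heart gene list at or under 4.86 CPM. Because RNA came from bulk muscle, fewer mitochondria-rich fibres and less RNA per fibre cannot be told apart.

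Levels were compared between genes as counts scaled to library size and to kilobases of gene length (FPKM), averaged over 36 mice. Within complex II, Sdhb, the iron-sulfur subunit, had the highest level with 411 FPKM (246.7 to 700.5 in single mice), followed by the flavoprotein subunit Sdha with 212 FPKM (111.4 to 377.8). The membrane anchors Sdhd and Sdhc stood lower, with 157 and 150 FPKM. In complex III, the hinge protein gene Uqcrh led with 569 FPKM (406.7 to 912.7) and was followed by Uqcr10 with 545 FPKM (376.8 to 798.0), and the lowest member was the core protein gene Uqcrc2 with 176 FPKM. The ranges of Uqcrh and Uqcr10 overlapped each other, and both lay above the highest Uqcrc2 value of 302.3 FPKM. Cycs, which carries electrons from complex III to complex IV, had 125 FPKM (73.6 to 166.7), a value that depends on the long gene length of 3154 bases given for it in the table.

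In complex V the highest level was that of Atp5b, the catalytic beta subunit of the F1 head, with 1359 FPKM (1018 to 1787), and the second that of Atp5j2 with 1123 FPKM (796.8 to 1598), whose ranges overlapped. The lowest of the 17 was Atp5j with 100.3 FPKM, for which the table gives 4137 bases and an overlap with Gabpa. In complex IV the spread between members was far wider. The heart and muscle isoform Cox6a2 had 1481 FPKM (795.7 to 2531) and Cox8b, another muscle isoform, 1317 FPKM (816.5 to 2014), while Cox4i2, an isoform known for its expression in lung, had 3.46 FPKM (1.42 to 8.53). The plot of levels by complex shows that 44 of the tested members lay above 40 FPKM and Cox4i2 alone far below.

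**Figure D1:**
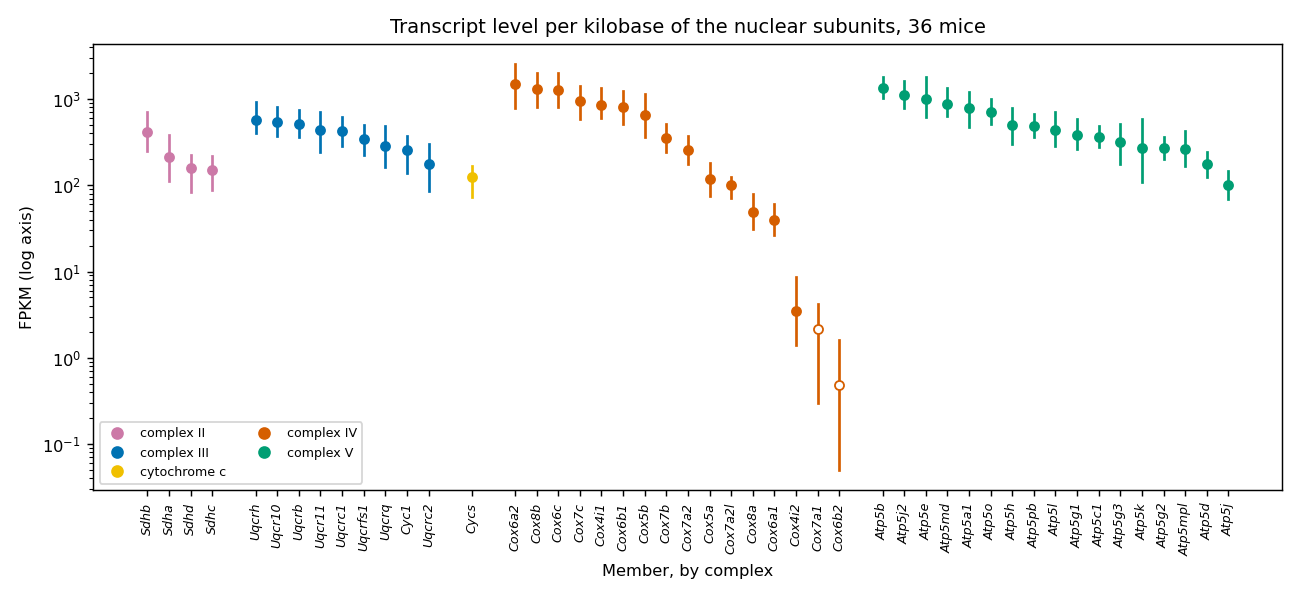
Level of each member in FPKM on a log axis, sorted within complex. Points are means over 36 mice and lines run from the lowest to the highest mouse; open points mark members below a mean count of 25, the line of Cox6b2 is cut at 0.05 because its lowest value was 0, and Cox7b2 and Cox8c, at 0 in all mice, are not drawn.

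Of the 49 members, 45 reached a mean count of 25 and were tested. The 4 that did not all belong to complex IV. Cox7b2 and Cox8c had no counts in any library, where a count of 0 says only that they were not detectable at this depth, and Cox6b2, best known from testis, had a mean of 5.06 counts and was at 0 in 7 libraries. Cox7a1, the heart and muscle isoform of subunit 7a, had a mean of 17.0 counts, or 0.99 CPM. Its gene (chromosome 7, 29883596 to 29885455 in the table's coordinates) is overlapped over 1314 bases by the feature LOC118567480, which itself held 0 to 15 counts, and reads in an overlap may be left uncounted. The part of that overlap in the low Cox7a1 count was not tested, and the level of Cox7a1 is therefore uncertain. In all, 15 members overlapped another feature in the table. Among them were Cox6a2, overlapped by Itgad over its whole span of 932 bases, and Cox7a2, overlapped by Gm51685 over 3493 bases. The part of these overlaps in their levels was not tested.

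Isoform pairs of complex IV were compared as ratios of their levels within each mouse. Cox6a2 exceeded its ubiquitous counterpart Cox6a1 by a median of 36.5 times (25.3 to 59.9 over 36 mice), and Cox8b exceeded Cox8a by 27.1 times (18.1 to 38.7). Cox4i2 stood at 0.00379 of the level of Cox4i1 (0.00201 to 0.00869). Cox7a1 stood at 0.00796 of the level of Cox7a2 (0.00170 to 0.0197), but the level of Cox7a1 is uncertain, so this pair does not show which form was the main one. These ratios are taken within a library and do not depend on its scaling. On the log2 scale the Cox6a2 to Cox6a1 ratio averaged 5.38 ± 0.21 (SD, n = 6) in HFD-C, 5.22 ± 0.21 in NFD-C, and, by distance, 5.09 ± 0.30, 5.19 ± 0.42, 5.18 ± 0.34 and 5.13 ± 0.24 in the running groups, and all groups overlapped. For Cox8b to Cox8a the lowest group mean was 4.67 ± 0.27 in HFD-75% and the highest 4.88 ± 0.17 in HFD-U. The muscle form of both pairs was the more abundant in all 36 mice.

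Atp5g1, Atp5g2 and Atp5g3 encode precursors of the same membrane ring subunit (subunit c) of ATP synthase. Per length they contributed 39.5% ± 2.3, 28.3% ± 5.0 and 32.2% ± 3.6 of their sum (SD, n = 36). The share of Atp5g2 was 33.0% ± 4.5 in NFD-C and 30.4% ± 4.6 in HFD-C, and 25.3% ± 3.3 to 27.5% ± 6.8 in the 4 running groups (n = 6 each). These ranges overlapped, with 26.4% as the lowest HFD-C mouse and 40.8% as the highest HFD-50% mouse. The 3 genes share much of their coding sequence, so a split of reads between them is not certain.

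Promoters are shown for 4 members because they contrast the ubiquitous isoforms Cox6a1 and Cox8a with the muscle isoform Cox8b, and because Sdhd held all 3 motifs searched. Each run is 300 bases, from 250 bases before to 50 bases after the start, taken from RefSeq on GRCm38.p6, all on the minus strand and printed 5′ to 3′. The positions are chr5:115348909-115349208 for Cox6a1, chr19:7217567-7217866 for Cox8a, chr7:140900397-140900696 for Cox8b and chr9:50603800-50604099 for Sdhd. Capitals mark matches on either strand to motifs written for NRF1 (GCGCA and GCGC with any single base between them), GABP (CCGGAAG) and ERR (TCAAGGTCA), which are factors known for regulating respiratory chain genes.
Cox6a1: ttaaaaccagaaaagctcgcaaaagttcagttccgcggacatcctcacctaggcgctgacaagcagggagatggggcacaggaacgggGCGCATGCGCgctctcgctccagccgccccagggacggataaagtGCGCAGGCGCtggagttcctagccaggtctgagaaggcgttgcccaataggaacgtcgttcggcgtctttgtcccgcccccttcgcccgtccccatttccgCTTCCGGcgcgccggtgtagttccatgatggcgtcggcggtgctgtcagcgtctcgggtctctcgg
Cox8a: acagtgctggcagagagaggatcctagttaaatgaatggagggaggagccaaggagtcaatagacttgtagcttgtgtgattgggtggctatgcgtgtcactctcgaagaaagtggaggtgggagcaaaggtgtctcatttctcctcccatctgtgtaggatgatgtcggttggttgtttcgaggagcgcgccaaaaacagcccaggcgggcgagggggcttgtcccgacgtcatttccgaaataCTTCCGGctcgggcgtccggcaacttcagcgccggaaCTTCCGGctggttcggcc
Cox8b: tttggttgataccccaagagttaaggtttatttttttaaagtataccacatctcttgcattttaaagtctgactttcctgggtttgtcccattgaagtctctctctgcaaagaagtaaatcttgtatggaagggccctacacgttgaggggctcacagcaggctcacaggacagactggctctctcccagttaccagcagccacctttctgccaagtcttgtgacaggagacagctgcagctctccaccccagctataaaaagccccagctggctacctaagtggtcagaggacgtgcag
Sdhd: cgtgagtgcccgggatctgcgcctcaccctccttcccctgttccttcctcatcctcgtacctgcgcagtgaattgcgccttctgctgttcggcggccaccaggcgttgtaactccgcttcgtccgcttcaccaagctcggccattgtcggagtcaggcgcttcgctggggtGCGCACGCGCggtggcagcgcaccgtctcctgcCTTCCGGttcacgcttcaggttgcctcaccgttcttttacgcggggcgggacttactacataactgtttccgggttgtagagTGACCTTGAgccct
In Cox6a1 the NRF1 letters stood at 2 places and the GABP letters at 1, in Cox8a the GABP letters stood at 2 places, and none overlapped another. Over the 37 members with an entry, 10 held the NRF1 letters (27.0%, against 5.19% of 27025 genes), 13 the GABP letters (35.1%, against 9.93%) and 2 the ERR letters (5.41%, against 0.466%). The 3 motifs were absent from 48.6% of the members and from 85.6% of all genes, and the other 12 members had no entry. Members without a motif included Cox7a1 and its counterpart Cox7a2, and also Atp5b and Cycs, while Cox6b1 held the GABP letters. Cox6a2 had no entry. The 4 printed promoters were picked and do not show a rule for muscle and ubiquitous isoforms. A match in these letters is a description of the window and does not show that a factor binds there.

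The first comparison asks whether members differed between diets in sedentary mice. Of the 45 tested members, 0 passed an unadjusted p of 0.05 in NFD-C against HFD-C, where 3.86% of all 12247 genes passed, and 0 passed an adjusted p of 0.05, where 0% of all genes did, while DESeq2 called 1 member (2.22%), Atp5h, at an unadjusted p of 0.05, where it called 4.54% of all genes. In 44 of the 45 the estimate was nevertheless lower in NFD-C, with a median log2 fold change of -0.22 against 0.00038 over all genes (edgeR quasi-likelihood test). The complexes did not separate: the medians were -0.23 for II, -0.25 for III, -0.20 for IV and -0.21 for V. Members move together between mice, as described further on, and a shared direction of many members is therefore not a count of independent results.

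The members with the smallest p in this comparison were Atp5h (peripheral stalk of ATP synthase), Uqcrq (complex III) and Atp5g3. Atp5h ranged from 256.3 to 308.6 CPM in NFD-C (median 278.4) and from 271.9 to 488.9 CPM in HFD-C (median 302.4). Uqcrq ranged from 251.3 to 410.8 CPM in NFD-C (median 335.3) and from 302.3 to 718.5 CPM in HFD-C (median 361.7). Both pairs of groups overlapped, and the HFD-C values reached much higher. The log2 difference was -0.29 for Atp5h (SE 0.15, adjusted p = 0.9996), and for Uqcrq it was -0.37 (SE 0.19, adjusted p = 0.9996). Atp5g3, with 251.9 to 454.5 CPM in NFD-C and 274.7 to 711.7 CPM in HFD-C, differed by -0.37 (SE 0.19, adjusted p = 0.9996). In the running groups the medians ran from 320.8 to 389.8 CPM for Atp5h, from 410.7 to 481.4 CPM for Uqcrq and from 414.4 to 508.1 CPM for Atp5g3, all above the HFD-C medians of 302.4, 361.7 and 394.7 CPM, with overlapping ranges. The 95% intervals of all 45 members excluded a 2-fold difference and those of 32 excluded a 1.5-fold difference. The slow fibre list had a median of 143.7 CPM in NFD-C and 1266 CPM in HFD-C, and with the slow fibre mean in the model the median of members was -0.08, while in high-share libraries alone it was -0.13. Leaving out single mice, the median of members ran from -0.28 without NFD-C mouse 3 to -0.12 without HFD-C mouse 6. Without HFD-C mouse 6 the differences were -0.17 for Atp5h, -0.17 for Uqcrq and -0.19 for Atp5g3. That mouse held the highest HFD-C value of each of these genes. Single mice also moved the count, which stayed at 0 without HFD-C mouse 6 (3.26% of all genes). Without HFD-C mouse 3 it was 11 of 45 (24.4%, against 5.28% of all genes in that fit), all lower in NFD-C, with 0.941 as the lowest adjusted p. It was 4 (8.89%) without NFD-C mouse 3 (3.61% of all genes) or HFD-C mouse 1 (4.62%), 3 (6.67%) without HFD-C mouse 2 (4.04%), and 2 (4.44%) without NFD-C mouse 1 (6.22%) or HFD-C mouse 5 (5.28%).

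The next comparisons ask whether running changed the subunit genes on the HFD. They share the 6 HFD-C libraries, so values are set side by side and are not independent. At an unadjusted p of 0.05, 0 of 45 members passed in HFD-25% (6.83% of all genes), 1 passed in HFD-50% (10.6% of all genes), and 0 passed in HFD-75% (5.31% of all genes) or HFD-U (5.31% of all genes), and DESeq2 gave the same 4 counts. At an adjusted p of 0.05, 0 members passed in each, where the share of all genes was 0.0082% in HFD-25% and 0% in each of the longer distances. With the 24 running mice as a single group, 0 of 45 passed either rule, against 9.13% of all genes at an unadjusted p and 0.25% at an adjusted p. DESeq2 likewise called 0 members there. The share of members called was below that of all genes at an unadjusted p in each of these comparisons.

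With increasing distance the median log2 fold change of members was 0.05, 0.08, 0.04 and -0.0046, and it was 0.04 for all running mice, with medians over all genes between -0.0091 and 0.010. Estimates were higher than in HFD-C for 28, 36, 30 and 22 of the 45 members with increasing distance. By complex, the medians in HFD-50% were -0.06 for II, 0.08 for III, 0.18 for IV and 0.06 for V, and in HFD-U they were 0.02, 0.01, -0.06 and -0.04. With the share of ribosomal RNA-linked counts as a covariate the medians were -0.16, -0.10, -0.10, -0.22 and -0.04 in the same order, and with the 2 low-share HFD-C libraries alone they were -0.17, -0.11, -0.19, -0.24 and -0.17. In both fits the median turned below 0 in all these comparisons except HFD-U, where it already lay below 0. HFD-C mouse 6 is 1 of the 2 low-share libraries and had the highest member mean of its group. Without it the medians were 0.16, 0.19, 0.17, 0.099 and 0.15 in the same order. In every comparison the direction of the median thus turned with the share or the HFD-C libraries used. Because no running mouse had a high share, that share and running cannot be told apart.

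**Figure D2:**
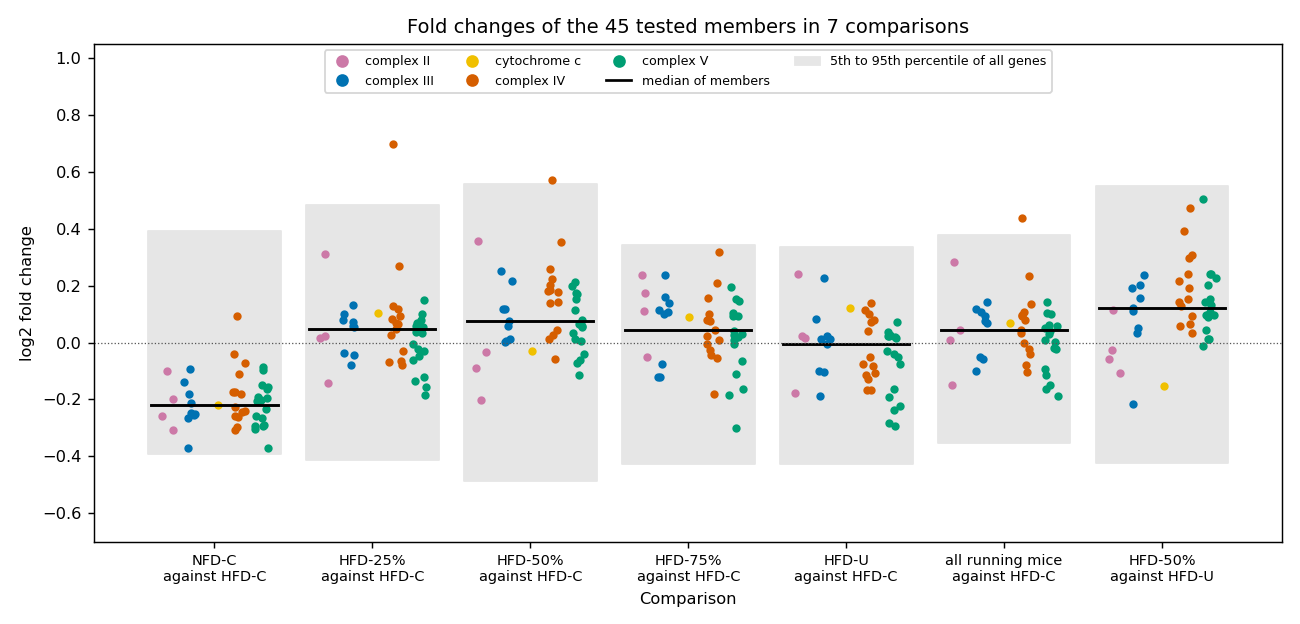
Log2 fold change (vertical axis) of the 45 tested members in each of 7 comparisons, coloured by complex. Black lines are member medians and grey bands the 5th to 95th percentile of all genes tested; at most 1 member per comparison lies outside the band, and in NFD-C against HFD-C 44 of 45 lie below 0.

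Intervals bound how large a change could have been missed. In the comparisons of HFD-75%, HFD-U and all running mice the 95% intervals of all 45 members excluded a 2-fold difference, and in HFD-25% and HFD-50% those of 44 did, the exception in both being Cox4i2. Intervals excluded a 1.5-fold difference for 42, 32, 41, 38 and 43 members in the 4 groups by distance and all running mice. No member had groups without overlap in any comparison, where 0.00833% to 0.878% of all genes did.

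Cox6a1, the ubiquitous isoform of subunit 6a, was the single member past an unadjusted p of 0.05, in HFD-50%. It measured 17.7, 18.6 and 23.97 CPM (lowest, median and highest mouse) in HFD-C and 15.3, 19.7 and 21.4 CPM in NFD-C. In the running groups it measured 16.9, 22.6 and 32.2 CPM in HFD-25%, 16.8, 25.4 and 32.9 CPM in HFD-50%, 15.2, 23.4 and 28.6 CPM in HFD-75%, and 14.4, 21.3 and 26.0 CPM in HFD-U. The highest mice of the running groups stood above all sedentary mice, and the lowest stood within or below the sedentary range. The log2 fold change in HFD-50% was 0.36 (SE 0.16, 95% interval 0.0087 to 0.702, adjusted p = 0.461). It was 0.27 (adjusted p = 0.774) in HFD-25%, 0.21 (adjusted p = 0.999) in HFD-75% and 0.23 (adjusted p = 0.629) in all running mice. The call was lost without any 1 of the HFD-C mice 1 to 5 or the HFD-50% mice 3, 5 and 6, with estimates down to 0.26. It was also lost with the ribosomal RNA-linked share (0.29) or the slow fibre mean (0.16) as a covariate, and in low-share libraries alone (0.26). Without HFD-C mouse 4 (11.6% of all genes) and with the slow fibre mean (8.77%), 1 member (2.22%) other than Cox6a1 passed instead.

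Cox4i2 had the largest estimates but few counts (mean 43.2). It measured 1.03, 2.003 and 3.26 CPM in HFD-C, 1.44, 2.80 and 6.20 CPM in HFD-25% and 2.02, 2.72 and 4.58 CPM in HFD-50%. In HFD-75% it measured 1.73, 2.36 and 3.40 CPM, and in HFD-U 1.29, 1.86 and 3.80 CPM. All groups overlapped. The log2 fold change was 0.70 (SE 0.37, adjusted p = 0.766) in HFD-25% and 0.57 (SE 0.30, adjusted p = 0.513) in HFD-50%. Cox4i2 also overlaps Bcl2l1 and Gm32057 in the table, so its few counts are uncertain.

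Sdhb, which passes electrons from the flavoprotein to the membrane part of complex II, measured 270.5, 389.1 and 531.1 CPM in HFD-C. It measured 307.2, 465.7 and 755.9 CPM in HFD-25%, 344.9, 470.4 and 718.2 CPM in HFD-50%, 338.3, 470.7 and 545.7 CPM in HFD-75%, and 293.5, 457.4 and 648.2 CPM in HFD-U. The medians of all 4 running groups lay above the HFD-C median and every range overlapped that of HFD-C. The log2 fold change was 0.36 (SE 0.22, adjusted p = 0.595) in HFD-50%, 0.24 (SE 0.17, adjusted p = 0.999) in HFD-75% and 0.28 (SE 0.17, adjusted p = 0.633) in all running mice. Sdhc, the membrane anchor of the same complex, had an estimate of -0.18 (SE 0.13, adjusted p = 0.998) in HFD-U, with 164.0, 188.7 and 216.2 CPM against 161.0, 202.1 and 271.6 CPM in HFD-C. Its medians in the other groups lay between 175.8 CPM in NFD-C and 194.0 CPM in HFD-50%.

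**Figure D3:**
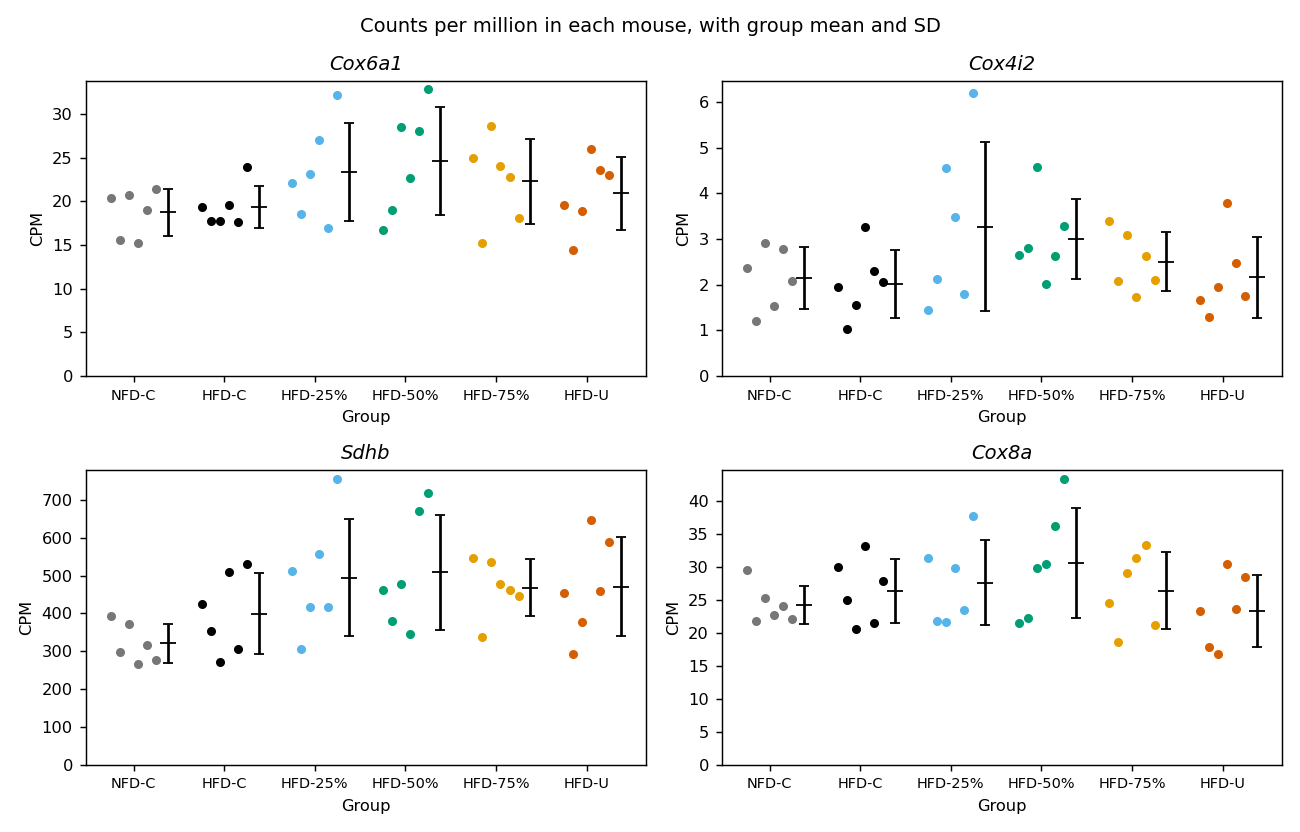
CPM of Cox6a1, Cox4i2, Sdhb and Cox8a in every mouse (points, 6 per group), with the group mean and SD beside them. All groups overlap for each gene, and HFD-50% has the highest mean for Cox6a1, Sdhb and Cox8a, whereas HFD-25% has it for Cox4i2.

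In complex V, Atp5mpl, a small subunit of the membrane part, gave the smallest p in HFD-75% and HFD-U with estimates below 0. It measured 167.8, 194.3 and 282.7 CPM in HFD-C, 121.5, 173.5 and 229.3 CPM in HFD-75% and 132.1, 165.6 and 255.5 CPM in HFD-U. The groups overlapped. The log2 fold change was -0.30 (SE 0.19, adjusted p = 0.999) in HFD-75% and -0.28 (SE 0.18, adjusted p = 0.997) in HFD-U. In NFD-C, HFD-25% and HFD-50% its medians were 197.7, 185.4 and 198.5 CPM. Atp5g2 had estimates of -0.18 (SE 0.12, adjusted p = 0.812) in HFD-25% and -0.15 (SE 0.09, adjusted p = 0.622) in all running mice, with 154.8, 187.6 and 234.4 CPM in HFD-C against 150.0, 167.2 and 176.9 CPM in HFD-25%. Its medians were 171.7 CPM in NFD-C and 160.7 to 179.1 CPM in the longer distances.

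Mice with the same number in HFD-U and HFD-C deviated together over all genes, with correlations of 0.132 to 0.536 in all 6 pairs, and this is the only comparison in which every pair was over 0.1. Without a block, 0 of 45 members passed an unadjusted p of 0.05 in HFD-U against HFD-C, where 5.31% of all genes passed. With the number as a block, 7 members (15.6%) passed, where 9.99% of all genes passed, and 0 passed an adjusted p of 0.05. The labels state no pairing, and the block was chosen from correlations in these same data, so its p-values may be too small. Of the 7, 2 were higher (Uqcrc2, 0.24, adjusted p = 0.373, and Sdhb, 0.24, adjusted p = 0.458) and 5 were lower in HFD-U. The lower ones were Atp5mpl (-0.28), Atp5md (-0.22), Atp5l (-0.18), Atp5k (-0.32) and Cox8b (-0.18), with adjusted p from 0.259 to 0.497. Uqcrc2 measured 233.0, 324.3 and 423.3 CPM in HFD-C and 301.6, 346.5 and 483.9 CPM in HFD-U, and without the block its estimate was 0.23 (SE 0.16, adjusted p = 0.998). The medians of Uqcrc2 elsewhere were 270.7 CPM in NFD-C and 318.9 to 339.1 CPM in the restricted runners.

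The direct comparison of intermediate with unrestricted running needs no sedentary library. Of 45 members, 0 passed an unadjusted p of 0.05 in HFD-50% against HFD-U, where 12.3% of all genes passed, and 0 passed an adjusted p of 0.05, against 0.00844% of all genes, and DESeq2 called 0 by both rules. Estimates were higher in HFD-50% for 39 members, with a median of 0.12 against 0.02 over all genes. These included all 14 tested members of complex IV (median 0.17) and 16 of 17 of complex V (0.11). The complex II median was -0.04. With any 1 mouse left out, the median of members was lowest without HFD-50% mouse 6 (0.00995) and highest without HFD-U mouse 4 (0.226). HFD-50% mouse 6 had the highest member mean of its group (0.51). The size of the median therefore depended on single mice, and members that move together are not independent results. Cox8a, the ubiquitous isoform of subunit 8, measured 21.5, 30.2 and 43.4 CPM in HFD-50% and 16.8, 23.4 and 30.4 CPM in HFD-U, a log2 difference of 0.39 (SE 0.19, adjusted p = 0.419). Its median was 23.4 CPM in NFD-C, 26.4 CPM in HFD-C, 26.6 CPM in HFD-25% and 26.8 CPM in HFD-75%. Atp5k, the e subunit of ATP synthase, measured 52.6, 90.3 and 186.9 CPM against 43.1, 68.2 and 117.7 CPM, a difference of 0.51 (SE 0.33, adjusted p = 0.537). Its medians in the other groups ran from 82.4 CPM in HFD-C to 93.3 CPM in HFD-25%. Cox4i2 differed by 0.47 (SE 0.29, adjusted p = 0.501). All of these ranges overlapped.

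Slow fibre genes differed in the same comparison, with 6 of the 8 listed higher in HFD-50% at an unadjusted p of 0.05 and a median log2 difference of 1.89. With the slow fibre mean as a covariate the median of members turned to -0.25, the estimates of Cox8a and Atp5k to -0.06 and -0.29, and 10 members (22.2%) passed an unadjusted p of 0.05, all lower in HFD-50%, where 8.99% of all genes passed. The lowest adjusted p among members was then 0.430. Over distance, a linear and quadratic trend across the 24 running mice was passed by 0 of 45 members at an unadjusted p of 0.05, where 8.36% of all genes passed, and by 0 at an adjusted p of 0.05, against 0.0419% of all genes. The smallest belonged to Cox4i2 (adjusted p = 0.716), Cox8a (adjusted p = 0.733) and Atp5k (adjusted p = 0.810).

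Differences between mice of 1 group were wide beside those between groups. The mean log2 deviation of the 45 members from the average of 36 mice ranged from -0.44 to 0.51 in single mice, which is a 1.93-fold span, while group means ranged from -0.19 ± 0.14 in NFD-C to 0.09 ± 0.31 in HFD-50% (SD, n = 6). HFD-U stood at -0.03 ± 0.30 and HFD-C at 0.01 ± 0.29. The within-group SD of single members ran from 0.18 for Atp5g2 to 0.53 for Atp5k with a median of 0.30, and the median over all genes was 0.30. After centring on group means, the 990 pairs of members had a median correlation of 0.72 over 36 mice, against -0.0029 for pairs of all genes, and 951 pairs were above 0. Such pairs share library, depth scaling and fibre makeup. The mean of members followed the nuclear complex I subunits with r = 0.95 and the 6 mitochondrial DNA subunits with r = 0.68. It was lower in libraries with more total counts (r = -0.40, Spearman rho -0.42), and had r = -0.08 (rho 0.11) with the ribosomal RNA-linked share. The part of depth in these relations was not tested.

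The slow fibre genes moved with the members from mouse to mouse. Across 36 mice the member mean and the slow fibre mean had r = 0.65 (Spearman rho 0.69), and r = 0.62 without the 2 mice farthest from the median of the slow list. Centred on group means r was 0.59, with 0.69 within the 26 low-share libraries and 0.49 within the 10 high-share libraries. All 45 members had a positive centred correlation with the slow list, from 0.09 for Atp5g2 to 0.73 for Sdhb. The fast 2B list gave r = -0.40 with the member mean. Points share the library and its scaling, and the part of fibre content in any comparison above was not tested beyond the covariate fits.

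**Figure D4:**
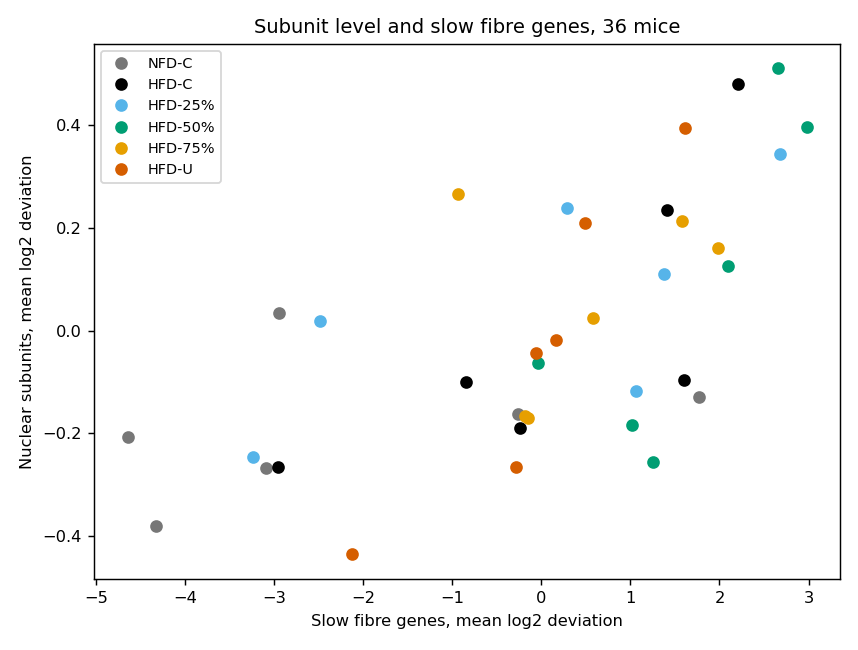
Mean log2 deviation of the 45 members (vertical axis) against that of the 8 slow fibre genes (horizontal axis), each relative to the mean of 36 mice, 1 point per mouse coloured by group. Mice with higher slow fibre genes tended to have higher members (r = 0.65 over 36 mice), and the groups overlap.

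A few members did not follow the rest. The 5 with the lowest correlation to the mean of the other members were Sdha (0.17), Uqcrc2 (0.38), Atp5a1 (0.45), Cox4i2 (0.45) and Sdhc (0.46), whereas 40 members were above 0.5. This set was picked after its values were seen. Except for Cox4i2, these members followed each other: the correlations among Sdha, Uqcrc2, Atp5a1 (the alpha subunit of the F1 head) and Sdhc lay between 0.87 and 0.95. Sdhd also followed the mean of these 4, with r = 0.91. The mean of the 4 had r = 0.29 with the mean of the other 41.

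As a mean, the 4 genes stood highest in the mouse numbered 1 of each group. Sdha measured 800.1 CPM in mouse 1 of NFD-C and 845.4 CPM in that of HFD-C, and with increasing distance it measured 1021, 841.4, 1080 and 839.1 CPM in the mice numbered 1 of the running groups, and in each group the 5 other mice were lower, at 318.5 to 718.1 CPM. Uqcrc2 was likewise highest in mouse 1 of all 6 groups. These 2 were the only such members among 45, and 514 of 12053 genes (4.26%) were such genes, so the pattern is not particular to the members. The mean deviation of the 4 genes was 0.33 to 0.60 (log2) in the mice numbered 1 and -0.76 to 0.32 in the other 30. Depth and ribosomal RNA-linked share of these mice varied, since mouse 1 had 14799359 to 27981702 counts and a share of 0.498% to 3.56%. Across the 41 members outside the set, gene length had a Spearman rho of 0.66 with the correlation to these 4 genes, as a description over genes, which are not independent replicates. What the number 1 stands for beyond the label is not given in the sources used here, and its part was not tested. In mice numbered 2 to 6 alone, the median of members was -0.26 in NFD-C against HFD-C, and 0.00073, 0.07, 0.04 and -0.02 in the running groups by distance.

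**Figure D5:**
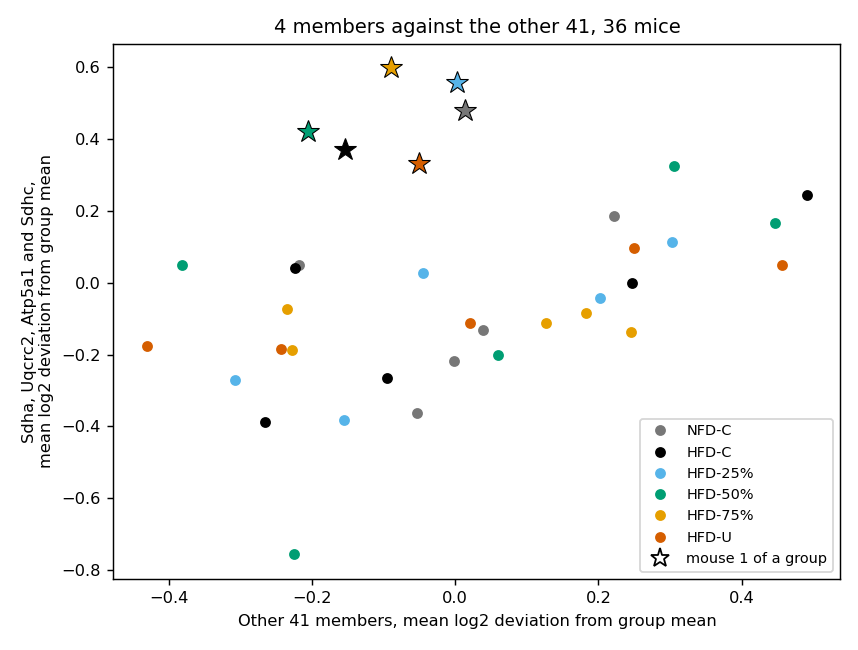
Mean log2 deviation from the group mean of Sdha, Uqcrc2, Atp5a1 and Sdhc (vertical axis) against that of the other 41 members (horizontal axis), 1 point per mouse. Stars are the mice numbered 1, which lie between 0.33 and 0.60 on the vertical axis in all 6 groups.

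Other genes of oxidative phosphorylation were counted in the same fits, at an unadjusted p of 0.05. Of the 42 nuclear complex I subunits, 4 (9.52%, against 3.86% of all genes) passed in NFD-C against HFD-C, all lower in NFD-C (Ndufb10, Ndufa8, Ndufa12 and Ndufb3), with a median of -0.20. In the running groups against HFD-C 0 to 2 of them passed (at most 4.76%, where 5.31% to 10.6% of all genes passed), and Ndufb1 was lower in HFD-25%, HFD-U and all running mice, with -0.70 (SE 0.15, adjusted p = 0.332) in HFD-U. The 6 mitochondrial DNA subunits of complexes III to V had 1 member past an unadjusted p of 0.05 in HFD-25% (16.7%, against 6.83% of all genes). This was ATP8, with 1.01 (SE 0.41, adjusted p = 0.674), and its reading frame overlaps that of ATP6. ATP8 also passed in HFD-50% against HFD-U (1.04, SE 0.45, adjusted p = 0.380) and in the trend (adjusted p = 0.354). In these 2 fits it was again 16.7% of the list, where 12.3% and 8.36% of all genes passed. Of 43 tested assembly factors, 2 passed in NFD-C against HFD-C (Fmc1 and Coa7, both lower), which is 4.65% and near the share of all genes. In each running group 0 passed, in all running mice 1 did (Cox19, lower, 2.33% against 9.13% of all genes), and in HFD-50% against HFD-U 2 did (Dmac2 higher and Hccs lower, 4.65% against 12.3%). None of the genes on these lists passed an adjusted p of 0.05 in any comparison.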

How the data were processed

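RNA of gastrocnemius from 36 mice, 6 per group by the treatment label, was sequenced as paired-end poly(A) libraries. The authors deposited whole-number counts of reads per gene, without normalization, and the submitters' processing notes name HISAT2 2.0.5 and featureCounts 1.5.0-p3 with mm10, whereas chromosome accessions beside the counts belong to GRCm39. Total counts were 13060090 to 27981702 per library, and the intervals of fold changes are estimated from the spread between mice.

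From these counts, TMM-scaled CPM and FPKM (with the table's gene lengths) were computed, and genes whose mean count reached 25 in a fit were tested in R 4.3.3 with the robust quasi-likelihood F-test of edgeR 4.0.16, two-sided, with Benjamini-Hochberg adjustment over all genes. Each group was compared with HFD-C, and HFD-50% with HFD-U, in fits of those groups alone, and a linear plus quadratic trend was fitted over running mice. Members passing an unadjusted p of 0.05 or an adjusted p of 0.05 were counted. The script was tested on simulated data. Correlations used log2(CPM + 0.5).

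Members and lists (slow fibre, complex I, assembly factors and others) were chosen with earlier results of these data known. Named were the 2 highest members per complex, isoform pairs, the Atp5g genes, members under the filter, and the 3 smallest p per comparison. Members outside this rule were named after their values were seen. Same-numbered mice were taken as pairs only where all 6 correlations were over 0.1 (HFD-U against HFD-C). Libraries of 1 group differed by 13.45 to 162.4 times the sampling variance (chi-square per degree of freedom), so none was a duplicate of another in its group. Libraries of different groups were not compared in this way. Whether mice shared cages or litters is not given in the sources used here, and p-values rest on the spread between these mice. Alternatives were DESeq2 1.42.0, RLE scaling, no minimum count, rRNA-linked features removed or their share as a covariate, a replicate block, mice 2 to 6, the slow fibre mean as a covariate, 1 fit over all groups, and leaving out each mouse.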

Additional observations from a re-analysis of the deposited data

Results flagged for a closer look

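Of 144 sets of 6 mice tested for a single distant value, 7 (4.86%) were flagged, and the limit used flags about 1 in 20 independent sets. These sets are genes measured in the same mice and are not independent, so the number of flags is not a test of chance. They cover only part of the 45 tested members, so 4.86% is not a rate over all members. Sdha in HFD-25% mouse 1 had 1021 CPM, with the nearest other mouse at 610.1 CPM. Sdha in HFD-75% mouse 1 had 1080 CPM, against 623.8 CPM in the nearest mouse, and Sdha in HFD-U mouse 1 had 839.1 CPM, against 612.5 CPM. Sdhc in HFD-75% mouse 1 had 285.7 CPM, against 194.8 CPM, and Uqcrc2 in that mouse had 568.9 CPM, against 347.5 CPM. In HFD-C mouse 6, Cox6a1 had 23.97 CPM, against 19.65 CPM in the nearest mouse, and Atp5k had 146.9 CPM, against 89.69 CPM. Of the 7 flags, 5 belong to mice numbered 1, and since the 3 genes involved follow each other from mouse to mouse, these 5 are not separate observations.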

How the results depend on the processing

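The number of members at an adjusted p of 0.05 was 0 in every comparison under every alternative run. Counts at an unadjusted p of 0.05 were small and moved as follows, with the share of all genes called in the same fit in parentheses, and the cause was not tested. For NFD-C against HFD-C (0) they were 1 with DESeq2 (4.54%), 5 with no minimum count (9.25%), 1 with the replicate block (6.49%) and 4 in mice 2 to 6 (4.89%). For HFD-25% (0) they were 2 with the rRNA-linked share (13.1%), the replicate block (7.98%) or the slow fibre mean (7.98%), and 1 with no minimum count (9.86%), mice 2 to 6 (7.32%), 1 fit over all groups (8.16%) or low-share libraries (11.5%). For HFD-50% (1) they were 0 with the rRNA-linked share (11.5%) or low-share libraries (9.35%). For HFD-U (0) they were 7 with the block (9.99%) and 1 with the rRNA-linked share (12.3%), the slow fibre mean (6.12%) or low-share libraries (11.8%). For all running mice (0) they were 3 with the block (11.8%), 2 in low-share libraries (13.3%) and 1 with the slow fibre mean (9.58%). For HFD-50% against HFD-U (0) they were 10 with the slow fibre mean (8.99%; median -0.25, with Cox8a at -0.059 and Atp5k at -0.29 reversed), 2 with the block (17.8%) and 1 with no minimum count (11%), mice 2 to 6 (12.4%) or 1 fit (14.4%). For the trend (0) the linear term alone gave 1 (7.07%). Of 45 members, 1 is 2.22%, 2 are 4.44%, 3 are 6.67% and 4 are 8.89%. Leaving out single mice gave 0 to 11 for NFD-C against HFD-C (11 without HFD-C mouse 3, 5.28%), 0 to 2 for HFD-25% (2 without HFD-25% mouse 5; 1 without HFD-C mouse 4 or 6 or HFD-25% mouse 1 or 2), 0 to 2 for HFD-50% (2 without HFD-50% mouse 4) and 0 to 2 for HFD-75% (2 without HFD-C mouse 6, 1 without HFD-75% mouse 2). It gave 0 to 2 for HFD-U (2 without HFD-U mouse 4, 1 without HFD-C mouse 1), 0 to 3 for all running mice (3 without HFD-C mouse 6, 1 without HFD-C mouse 1 or 4), 0 to 2 for HFD-50% against HFD-U (2 without HFD-U mouse 4, 1 without HFD-U mouse 6 or HFD-50% mouse 1 or 2) and 0 to 1 for the trend (1 without HFD-25% mouse 1 or HFD-U mouse 4). Apart from NFD-C against HFD-C, each of these counts without 1 mouse was a smaller share of members than the share of all genes in the same fit (4.69% to 17.3%). In the other comparisons 1 to 5 of the 6 same-numbered pairs were over 0.1, so the number was not taken to pair mice there, although the pair of mice numbered 1 was over 0.1 in each (0.349 to 0.614). Over all genes at an unadjusted p of 0.05, counts rose with no minimum count (for NFD-C against HFD-C from 473 to 2414) and fell for HFD-50% against HFD-U from 1461 to 535 with the rRNA-linked share. For HFD-U the block moved them from 639 to 1201. At an adjusted p of 0.05, DESeq2 called 2 genes for NFD-C and 160, 40 and 28 for HFD-50%, HFD-75% and HFD-U, where edgeR called 0. RLE scaling and removing rRNA-linked features changed no count of members by over 1.5 times. The 6 mice per group and a median interval half-width of 0.28 to 0.42 (log2) limit what could be seen, and low-share fits rest on 2 HFD-C mice.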
